A study of Mus musculus with 21 samples.

Results

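Chromatin immunoprecipitation and sequencing (ChIP-seq) for Zbtb1 in Ebf1-deficient lymphoid progenitors (LPs) gave a list of 5898 peaks, and 700 of them (11.9%) were intergenic peaks bound by Zbtb1 alone. These were chosen by the annotation of the peak as intergenic, by having no base in common with any of the 6077 peaks in the list for the corepressor Cbfa2t3, and by a position outside simple repeats and low-complexity sequence. Of the 1453 intergenic Zbtb1 peaks, 228 lay in simple repeats or low-complexity sequence, 525 shared at least 1 base with a Cbfa2t3 peak, and the remaining 700 made up 57.1% of those outside the repeats. The presence of a Zbtb1 peak and the absence of a Cbfa2t3 peak are therefore properties that selected these regions and not findings about them.

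The LPs were 1 established C57BL6/J mouse cell line without a functional Ebf1 gene, grown on OP9 stromal cells with SCF, IL-7 and Flt3L, and all groups share this background. ChIP-seq was done on 2 replicates for each factor, without Notch stimulation, in otherwise unmodified LPs fixed with disuccinimidyl glutarate and formaldehyde. For gene expression, LPs expressing Cas9-GFP received a pool of 2 sgRNAs against luciferase (sgCont), Lmo2, Zbtb1, Cbfa2t2 or Cbfa2t3, and the transduced cells were sorted 5 days later for 3′ mRNA sequencing (QuantSeq), with 3 libraries, independent biological replicates per the study's methods, for each of the 5 conditions. Expression is given as CPM, the reads of a gene scaled to a common library total, and each library held 1705417 to 2095448 reads, so that 3 reads were worth 1.43 to 1.76 CPM.

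Zbtb1 is a zinc finger protein with a BTB domain that is needed for the development of T cells, and proteins of this family often act with corepressors. Cbfa2t3 (Eto2) has no DNA-binding domain of its own and is brought to DNA by complexes of basic helix-loop-helix (bHLH) factors, which bind E-boxes, with Lmo2 and Ldb1. Runx factors bind the core letters TGTGGT and are present at many regulatory elements of blood progenitors, and intergenic elements of this kind can act on genes at a distance.

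The sequences of 8 of the peaks are shown, each as the 200 bases at the peak centre on the plus strand of mm10 (GRCm38), 5′ to 3′, with the coordinates of the window. Capitals mark every match to TGTGGT or TGGTGGT on either strand, so that a match on the minus strand reads ACCACA or ACCACCA. The first 4 were chosen because they carry Runx letters near the IL-7 receptor gene or near genes that were lower with sgRNAs against Zbtb1. The Lgals3 window joins a Runx match to a TGGTGGT match.
Il7r, chr15:9574862-9575061: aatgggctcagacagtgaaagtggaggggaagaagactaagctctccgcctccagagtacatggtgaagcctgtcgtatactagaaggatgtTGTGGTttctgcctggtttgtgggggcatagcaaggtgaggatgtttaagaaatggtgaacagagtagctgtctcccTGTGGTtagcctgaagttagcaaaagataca
Ywhah, chr5:32997730-32997929: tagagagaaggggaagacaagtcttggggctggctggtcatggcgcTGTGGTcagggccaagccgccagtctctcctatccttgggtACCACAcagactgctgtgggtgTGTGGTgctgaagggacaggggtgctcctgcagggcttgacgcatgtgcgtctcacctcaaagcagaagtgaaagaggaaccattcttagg
Itpr2, chr6:146522033-146522232: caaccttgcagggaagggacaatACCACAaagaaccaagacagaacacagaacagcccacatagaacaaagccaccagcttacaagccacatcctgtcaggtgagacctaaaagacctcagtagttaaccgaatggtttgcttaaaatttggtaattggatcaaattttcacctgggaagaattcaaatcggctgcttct
Lgals3, chr14:47361612-47361811: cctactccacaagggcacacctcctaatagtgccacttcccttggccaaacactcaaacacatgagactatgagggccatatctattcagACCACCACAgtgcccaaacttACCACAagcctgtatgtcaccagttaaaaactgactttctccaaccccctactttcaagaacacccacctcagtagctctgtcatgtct
The next 2 show the runs of repeated TGG that a group of these peaks held, although rows annotated as simple repeats had been left out.
Maml3, chr3:52181287-52181486: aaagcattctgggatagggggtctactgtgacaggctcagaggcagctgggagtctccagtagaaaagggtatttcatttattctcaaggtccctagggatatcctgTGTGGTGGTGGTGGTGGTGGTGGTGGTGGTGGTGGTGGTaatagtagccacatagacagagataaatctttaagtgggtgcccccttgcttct
Prmt5, chr14:54518809-54519008: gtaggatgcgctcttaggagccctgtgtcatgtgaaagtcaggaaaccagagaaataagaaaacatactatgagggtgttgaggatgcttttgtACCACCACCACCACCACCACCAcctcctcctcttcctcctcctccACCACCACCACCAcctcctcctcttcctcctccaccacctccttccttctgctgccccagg
The last 2 lie near transcription factor genes of the T-cell and lymphoid programmes, and the Tcf7 window is in a CpG island and holds neither motif.
Ikzf1, chr11:11657290-11657489: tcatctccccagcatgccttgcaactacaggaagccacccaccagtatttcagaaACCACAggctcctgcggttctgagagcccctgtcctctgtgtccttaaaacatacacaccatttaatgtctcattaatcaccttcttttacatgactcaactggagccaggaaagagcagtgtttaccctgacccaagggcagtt
Tcf7, chr11:52314174-52314373: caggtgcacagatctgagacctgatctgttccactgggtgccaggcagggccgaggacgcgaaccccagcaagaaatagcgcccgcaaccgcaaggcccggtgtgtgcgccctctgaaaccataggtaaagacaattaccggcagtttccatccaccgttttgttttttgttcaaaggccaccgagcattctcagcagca

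The scores and distances of the intergenic Zbtb1-alone peaks lay close to those of the peak classes most like them. The median peak score, which is the number of reads at the peak after scaling to a common library total, was 23.8 with quartiles of 18.3 and 38.7, and 4 peaks sat at the lowest score of the list, 15. A score of at least 30 was reached by 250 peaks and of at least 100 by 20. The intergenic peaks shared with Cbfa2t3 had a median score of 27.1, with quartiles of 19.9 and 51.2, and the intronic Zbtb1-alone peaks had a median of 25.5. The median share of reads close to the peak centre was 0.839 in the Zbtb1-alone peaks and 0.814 in the shared peaks. The nearest annotated start site was at a median of 20.9 kb, compared with 20.0 kb for the shared and 24.9 kb for the intergenic Cbfa2t3-alone peaks, and a distance from genes is part of the intergenic rule. In all, 99 peaks were nearer than 5 kb, 301 lay at 10 to 50 kb and 90 beyond 100 kb, and 479 (68.4%) were upstream of it. The peaks were spread over chromosomes 1 to 19 and X, and only 62 (8.86%) had another such peak within 10 kb.

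The distance to Cbfa2t3 peaks is given as a description, since the rule itself left out overlapping peaks and no baseline distance was computed. The gap to the nearest Cbfa2t3 peak had a median of 54.0 kb with quartiles of 10.7 and 188 kb. More than 100 kb away were 255 peaks (36.4%), while 168 (24.0%) were within 10 kb and 39 (5.57%) within 1 kb. Just inside the rule, the smallest gaps were 11 bases near Mir205 (score 31.2), 16 bases near 1700029F12Rik (40.9), 20 bases near Ikzf1 (24.3), 24 bases near Armc12 (139.5) and 55 bases near Gal (28.0). Just outside it, intergenic Zbtb1 peaks that shared only 9 bases with a Cbfa2t3 peak lay near Btg2 (21.6) and Mir3089 (21.0), and others shared 10 bases near Zfp316 (36.5), 18 bases near Fgd2 (19.9) and 24 bases near Tmem181b-ps (34.5). The Cbfa2t3 list begins at a score of 20.6 and the Zbtb1 list at 15, so weaker Cbfa2t3 binding at these positions was not measured by the lists.

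The peaks with the highest scores were a mixed group. By far the highest score, 29792, belonged to a gamma satellite (GSAT_MM) at chr9:3024311-3024681, a sequence present in very many copies, and another of the top 10 lay in a ribosomal RNA repeat at chr6:3201309-3201679 with a score of 275. Between them came a CpG island downstream of Mir704 (486) and an L1 element 1.91 kb upstream of Scd4 (432). The others in the top 10 were nearest to Adam6b (206, and 60 bases from a D segment of the immunoglobulin heavy chain locus, Ighd4-1), Zmiz2 (168), Rwdd3 (166), Mir8096 (143), Armc12 (140) and Sspn (135). Of these 10 peaks 4 held TGTGGT, near Mir704, Adam6b, Rwdd3 and Mir8096. The 4 peaks on unplaced scaffolds were all nearest to Gm2002 and formed 2 pairs of equal scores, 87.5 and 61.3, on 2 scaffolds, and their sequences were not searched. Reads from multi-copy sequence cannot be assigned to 1 copy, so the scores of the satellite, ribosomal RNA and scaffold rows are uncertain.

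By the peak annotation, 464 peaks (66.3%) lay in neither a repeat nor a CpG island, 75 (10.7%) in LTR elements, 30 (4.29%) in LINEs and 25 (3.57%) in SINEs. LTR elements are remnants of endogenous retroviruses, and 40 of the 75 belonged to the ERVL-MaLR family and 20 to ERVK. CpG islands held 88 peaks, 12.6% (95% Wilson interval 10.3 to 15.2), compared with 6.29% of the intergenic shared peaks, a difference of 6.29 percentage points with a Newcombe interval of 2.99 to 9.49. The share in CpG islands was 27.0% of intronic Zbtb1-alone peaks and 2.31% of intergenic peaks bound by Cbfa2t3 alone. For LTR elements the difference from the shared peaks was -1.29 points (-4.99 to 2.26), within counting error. All intervals for shares of peaks cover counting error only.

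The intergenic label depends on the gene models. In GENCODE vM21, which has more non-coding genes, 108 of the 696 peaks on assembled chromosomes (15.5%) lay within 1 kb of a start site, 164 (23.6%) were inside a gene, and 490 (70.4%) were neither. The genes at these 108 start sites included 41 protein-coding genes, 19 lincRNAs and 16 processed pseudogenes. CpG island peaks made up 50 of the 108, which is 56.8% of the 88, against 9.54% for peaks outside CpG islands. The peak near Zmiz2, for example, was 73 bases from a vM21 start site of that gene. Among intergenic shared peaks, 53 of 524 (10.1%) lay within 1 kb of a vM21 start site, as did 9 of the 33 in CpG islands (27.3%). Of the 490 Zbtb1-alone peaks neither near a start site nor inside a gene, 31 were in CpG islands. Of the 382 such shared peaks, 19 were. No interval was computed for the CpG island difference away from start sites, and the part of start sites in it was not tested.

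The Runx letters were the leading sequence feature of intergenic Zbtb1-alone peaks, and E-boxes were not more frequent than in the surroundings. TGTGGT was present in 433 of 696 windows, 62.2% (58.6 to 65.7), against 15.1% of 1392 windows of the same length 5 kb to each side. The ETS letters GGAAGT were in 21.1% against 12.4% of the flanks. The E-box CAGNTG was in 37.8% (34.3 to 41.4) against 39.3%, a difference of -1.51 points whose interval reached down to -5.88 and included 0. The share for the letters of STAT (TTCNNNGAA, 6.32% against 5.75%), AP-1 (TGANTCA, 6.61% against 6.47%), TCF/LEF (CTTTGA, 11.6% against 13.4%) and the CTCF core (1.01% against 0.790%) lay close to the flanks. AGATAA, the GATA letters, was less frequent in the peaks than in the flanks, 6.75% against 10.4%, with a difference of -3.66 points (-6.03 to -1.08). CRE letters (TGACGTCA) were found in 3 windows. The median GC content was 51.5% in the peaks and 46.0% in the flanks, and its part in the shares was not tested.

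The E-box was where these peaks differed most from peaks with Cbfa2t3. Intergenic peaks shared by Zbtb1 and Cbfa2t3 held an E-box in 70.4% of windows, 32.6 points more than the Zbtb1-alone peaks (interval of the difference, Zbtb1 alone minus shared, -37.8 to -27.2), and intergenic peaks bound by Cbfa2t3 alone in 87.3%. Intronic Zbtb1-alone peaks held it in 38.5%, and their difference from the intergenic ones was -0.723 points (-5.28 to 3.89). The E-box share was much the same at every distance from Cbfa2t3 binding. It was 38.5% for the 39 peaks within 1 kb of a Cbfa2t3 peak, 38.6% at 1 to 10 kb, 36.7% at 10 to 100 kb and 38.4% beyond 100 kb. ETS letters were also less frequent than in the shared peaks, by -6.93 points (-11.9 to -2.07).

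**Figure D1:**
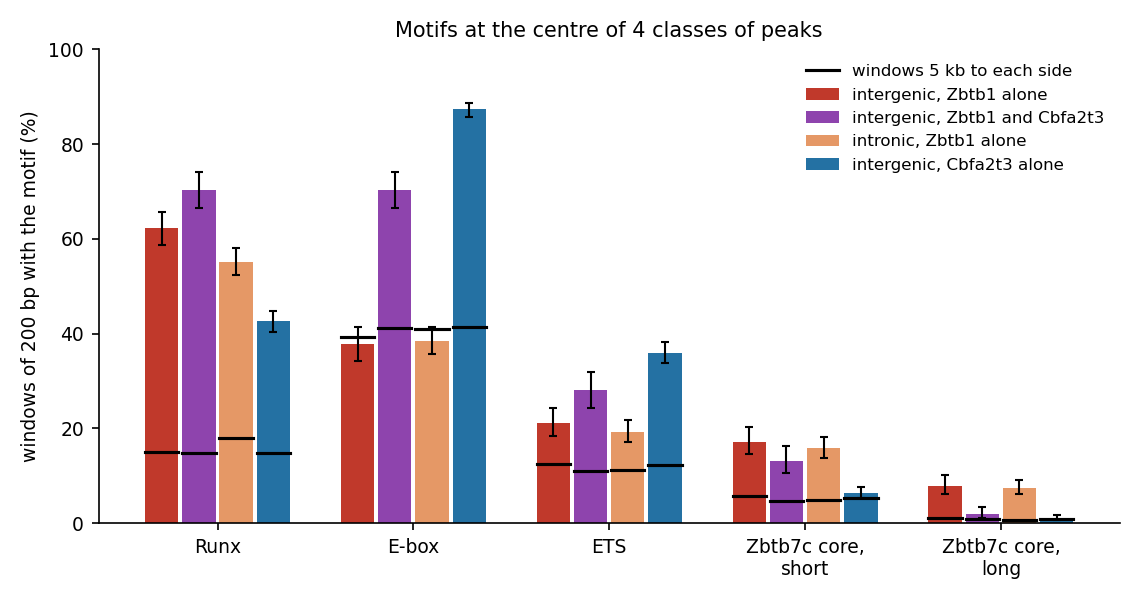
Share of 200 bp windows at the peak centre (vertical axis, %) that hold each motif on either strand, for 4 classes of peaks (colours), with 95% Wilson intervals as error bars and the share in windows 5 kb to each side as black lines. In the intergenic Zbtb1-alone peaks the Runx share of 62.2% stands far above the flanks while the E-box share of 37.8% lies at the flank level, and the E-box share is 87.3% where Cbfa2t3 is bound alone. The short and long Zbtb7c cores are TGGTGGT and TGGTGGTGG.

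Runx letters were somewhat less frequent in Zbtb1-alone than in shared peaks, 62.2% against 70.4%, a difference of -8.21 points (-13.4 to -2.84). Outside CpG islands the difference was -3.54 points (-8.85 to 1.86), and in windows of 100 bp it was -1.37 points. Compared with intronic Zbtb1-alone peaks (55.2%) they were more frequent by 7.01 points (2.34 to 11.6). CpG islands held 27.0% of the intronic and 12.6% of the intergenic Zbtb1-alone peaks. The comparison with intronic peaks was not repeated outside CpG islands, so their part in it was not tested. The match nearest the centre was at a median of 18.0 bp, and 65.4% of the peaks with a match had one within 25 bp of the centre, whereas for the E-box the values were 48.0 bp and 25.9%. Matches were often repeated: 222 peaks (31.9%) held at least 2 Runx matches and 68 (9.77%) at least 3, as in the Ywhah window printed above with 3. In the Il7r window the first Runx match began at base 93, close to the centre, and the other at base 170.

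**Figure D2:**
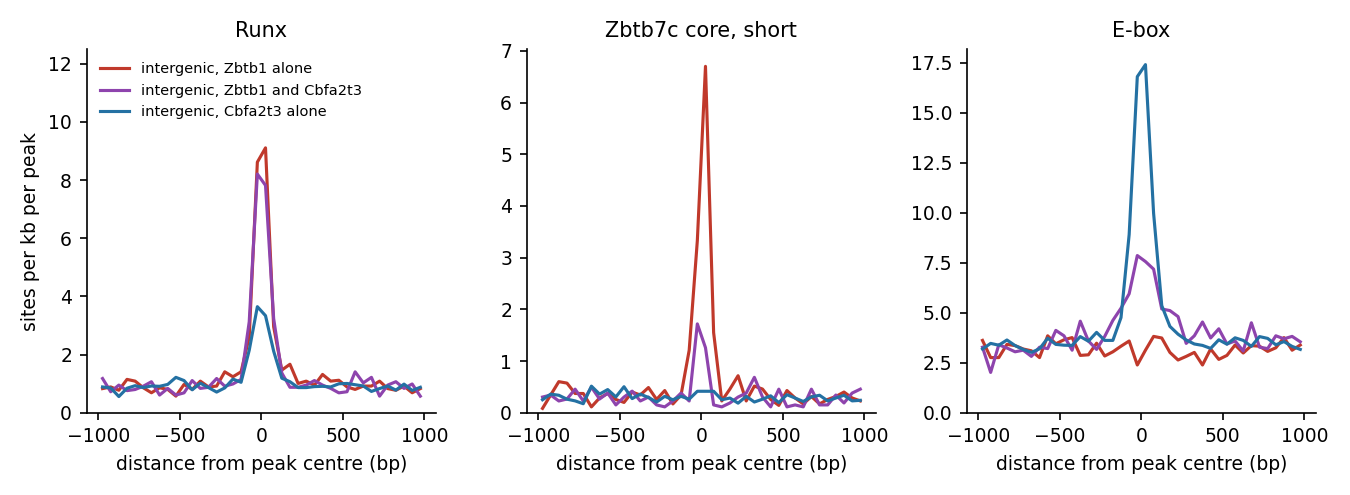
Density of motif matches (vertical axes, sites per kb per peak, with a separate scale in each panel) in bins of 50 bp against the distance from the peak centre (horizontal axes, bp) for Runx, the short Zbtb7c core and the E-box in 3 classes of peaks (colours). Runx matches gather at the centre of Zbtb1-alone and shared peaks alike, E-box matches gather at the centre of the peaks with Cbfa2t3 only, and overlapping matches in TGG runs are each counted in the middle panel.

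TGGTGGT and the longer TGGTGGTGG were taken as the core letters bound by Zbtb7c, a protein of the same family. TGGTGGT was present in 17.2% of the intergenic Zbtb1-alone peaks against 5.68% of the flanks, and TGGTGGTGG, which contains it, in 55 peaks, 7.90% (6.12 to 10.1) against 1.08%. The shared peaks held TGGTGGT in 13.2%, and the difference of 4.07 points had an interval of -0.0383 to 8.05, which includes 0. Outside CpG islands this difference was 5.03 points (0.576 to 9.36). The shared peaks held TGGTGGTGG in 1.91%, a difference of 5.99 points (3.62 to 8.40), and the intronic Zbtb1-alone peaks in 7.45%. Runx and TGGTGGT matches were together in 76 peaks, in 30 of which they shared bases, since TGTGGTGGT holds both, and 219 peaks (31.5%) held neither.

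The 5 highest scores among the TGGTGGTGG peaks were 113 near Maml3, 96.6 near Gpx5, 73.2 near Thumpd3, 67.4 near 2810410L24Rik and 61.8 near Tmem232. Most of the TGGTGGTGG matches lay in runs of the unit TGG. An unbroken run of at least 15 bases was found in 38 of the 55 peaks (69.1%), with a median run of 20 bases over the 55 and a longest of 51 near Mlec. The Maml3 window had a run of 38 bases with 11 overlapping TGGTGGT matches, and the Prmt5 window had 9 such matches on the minus strand with a longest run of 24 bases. Runs were in 5.46% of intergenic Zbtb1-alone windows, 4.85% of intronic Zbtb1-alone windows, 0.382% of shared windows, 0.110% of Cbfa2t3-alone windows and 0.287% of the flanks. Without the windows that held a run, TGGTGGTGG was in 2.58% of Zbtb1-alone and 1.53% of shared windows, and the difference of 1.05 points had an interval of -0.701 to 2.74. The run length minimum was chosen after seeing the data. Peaks with a run had a median score of 29.4 (quartiles 20.2 and 48.6), against 23.3 (18.3 and 36.8) for the others. How well reads could be placed on these runs was not measured here.

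Peaks in CpG islands formed a separate group by sequence. Runx letters were in 11.4% of the 88 CpG island windows and 69.6% of the 608 others, a difference of -58.2 points (-64.4 to -49.1), and the CpG island share was not above its flanks at 14.8%. E-boxes were in 23.9% and 39.8% of them, and TGGTGGT in 4.55% and 19.1%. The CpG island windows had a median GC content of 70.0% and a median of 21.5 CG pairs, compared with 50.5% and 3.00 for the others, and the printed Tcf7 window had 56.0% GC and 11 CG pairs. Of the 263 peaks without TGTGGT, 78 (29.7%) were in CpG islands, compared with 2.31% of the 433 with it.

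**Figure D3:**
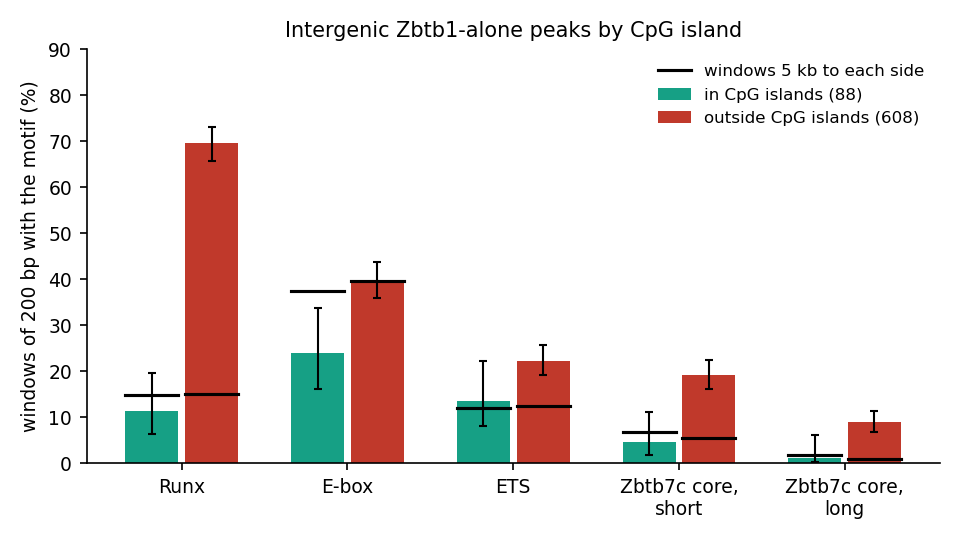
Share of 200 bp windows (vertical axis, %) with each motif in intergenic Zbtb1-alone peaks inside (88) and outside (608) CpG islands (colours), with 95% Wilson intervals as error bars and the windows 5 kb to each side as black lines. Runx letters reach 69.6% outside CpG islands and 11.4% inside them, where the share lies at the flank level.

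In LTR elements the Runx share was high, 80.0% (69.6 to 87.5) of 75 windows against 17.3% of their flanks, and GGAAGT was in 33.3%. Peaks in neither a repeat nor a CpG island held TGTGGT in 70.2%. The share with TGTGGT was 59.3% at scores of at least 30 and 63.8% below, a difference of -4.43 points (-12.0 to 3.05). TGGTGGTGG was in 11.0% of the stronger and 6.22% of the weaker peaks (difference 4.75 points, 0.520 to 9.65). TCF/LEF letters were less frequent in the stronger peaks, 7.32% against 14.0% (difference -6.68 points, -11.1 to -1.78). These are the 2 of 11 motifs whose interval left out 0 in this comparison, and no correction for the number of motifs was made.

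To compare these peaks with gene expression, each was assigned to the gene of its nearest start site as annotated by the authors. A gene was named for 644 peaks, and 638 were matched to 584 genes in the expression table. Of these genes 178 had no read in any of the 15 libraries, 251 in all (the 178 included) had a mean of 1 CPM or less and were not tested, and 333 were tested, which are nearest to 364 of the peaks. An intergenic peak need not act on its nearest gene, and 85 of the 584 genes were also nearest to an intergenic shared peak, while 175 of the 333 had at least 1 Cbfa2t3 peak assigned to them somewhere.

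The targeted genes were examined first. Zbtb1 mRNA was 94.4, 113 and 109 CPM in the libraries labelled sgZbtb1 and 62.7, 66.6 and 55.7 CPM in sgCont, so it was higher where it was targeted (log2 fold change 0.77 ± 0.16 SE, limma adjusted p = 0.00102). Cbfa2t3 mRNA was likewise higher, at 340, 344 and 364 CPM in the libraries labelled sgCbfa2t3 against 210, 189 and 172 CPM (0.88 ± 0.11, adjusted p = 1.67e-07). Tags at the 3′ end do not read a small edit in the coding sequence, and why these mRNAs were higher was not tested. The comparisons therefore rest on the labels. The level of the targeted proteins is not among the values analysed here. Markers of LPs summed to 1121 to 1353 CPM over the 15 libraries with none at 0, and 12 markers of the OP9 feeder cells summed to 1.96 to 14.2 CPM, of which 6 or 7 were at 0 in each group. The sum of the OP9 markers was 1.96 to 6.14 CPM in sgZbtb1 and 4.63 to 12.3 CPM in sgCont, and its part in the results was not tested. Over the 15 libraries, Pdgfrb reached 10.7 CPM and no other of these markers was above 3.91 CPM. Col3a1, Dcn, Lum and Postn were at 0 in every library. Ebf1 reads were present in all libraries (305 to 366 CPM in sgCont), and a 3′ tag does not show whether a transcript is intact. They were lower in sgZbtb1, at 221, 209 and 221 CPM (-0.62 ± 0.10, limma adjusted p = 6.96e-06). In bulk RNA, fewer cells of a type and less RNA per cell cannot be told apart.

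In the libraries labelled sgZbtb1, 29 of the 333 nearest genes differed from sgCont at an adjusted p under 0.05, 9 higher and 20 lower. This is 8.71% of the nearest genes, compared with 4.79% of all 11554 genes tested, and by direction 2.70% against 1.85% higher and 6.01% against 2.94% lower. The share called was 7.42% for the nearest genes of intergenic shared peaks and 7.83% for those of intronic Zbtb1-alone peaks. Most of the nearest genes moved little, with a median log2 fold change of -0.05 against -0.03 for all genes. Among the 158 genes with no Cbfa2t3 peak assigned to them, 7 (4.43%) were called, a share near that of all genes. By distance, 9 of 124 genes within 10 kb were called, 18 of 191 at 10 to 100 kb and 3 of 30 beyond, where a gene with several peaks can count in more than 1 band. The counts move with single libraries, to 4 higher without sgCont replicate 2 or sgZbtb1 replicate 1 and to 13 lower without sgCont replicate 2 or sgZbtb1 replicate 3. With edgeR on recovered reads they were 14 higher and 20 lower. Over all genes edgeR called 256 higher and 305 lower, compared with 214 and 340 by limma.

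**Figure D4:**
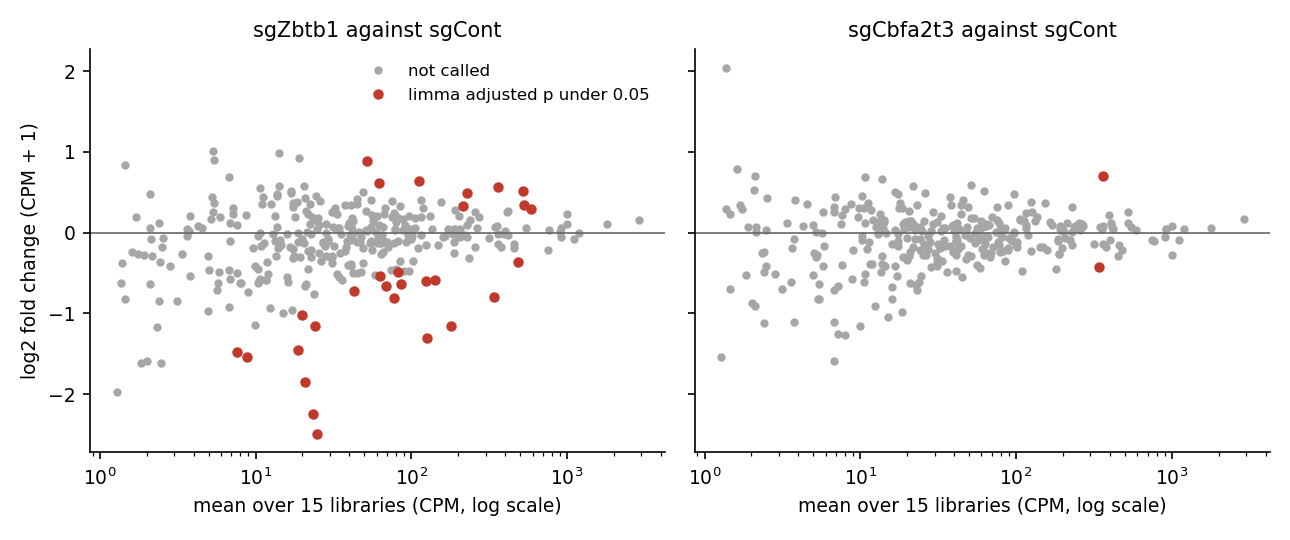
Log2 fold change on CPM + 1 (vertical axis) against the mean level over 15 libraries (horizontal axis, CPM, log scale) of the 333 tested nearest genes, for sgZbtb1 (left) and sgCbfa2t3 (right) against sgCont, with genes at a limma adjusted p under 0.05 in red. The 29 called genes on the left include 20 below 0, while 2 are called on the right, and both panels use the same sgCont libraries.

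The 19 called genes described next were chosen for having no overlap between the 3 sgZbtb1 and the 3 sgCont libraries, so the separation of their libraries is a condition of the choice and not a finding, and an exact permutation test of them gives 0.1, the smallest p it allows, by construction. The decreases reached log2 fold changes below -2 in the libraries labelled sgZbtb1. Itpr2, an inositol trisphosphate receptor that releases calcium from the endoplasmic reticulum, was 4.47, 5.26 and 4.91 CPM in sgZbtb1 and 19.7, 40.5 and 41.0 CPM in sgCont (-2.49 ± 0.28, adjusted p = 1.12e-09). The sgCbfa2t3 libraries, at 20.9, 29.7 and 16.6 CPM, overlapped with sgCont. Its peak, 19.9 kb upstream with a score of 38.1, held an E-box at the centre of the printed window, another 72 bp from it and a Runx match at -74 bp. In all, 3 Zbtb1 peaks and 1 Cbfa2t3 peak were assigned to Itpr2. Lgals3, which encodes galectin-3, had 2 Zbtb1-alone peaks, 3.84 and 12.1 kb upstream, and the nearest Cbfa2t3 peak was more than 553 kb away. It was 5.59, 6.69 and 2.95 CPM in sgZbtb1 against 25, 22 and 34.6 CPM in sgCont (-2.24 ± 0.29, adjusted p = 5.82e-08). Arid3b, a DNA-binding protein of the ARID family, was 3.91, 17.2 and 5.89 CPM against 23.8, 36.5 and 29.9 CPM (-1.85 ± 0.32, adjusted p = 5.19e-05), and 1 of the 3 sgZbtb1 libraries was well above the other two.

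Ywhah, a 14-3-3 adaptor protein, was 46.4, 69.3 and 45.2 CPM in sgZbtb1 against 125, 150 and 120 CPM in sgCont (-1.30 ± 0.13, adjusted p = 5.07e-11). It was 159, 156 and 155 CPM in sgCbfa2t3, and the difference between sgZbtb1 and sgCbfa2t3 was -1.56 ± 0.13 (adjusted p = 1.25e-13). Ywhah also had a Zbtb1 promoter peak, as did Ybx3, Zfp706 and Ddx21, described below, and 66 of the 333 tested nearest genes in all. Actr3b, a paralogue of the Arp3 subunit of the actin-nucleating Arp2/3 complex, was 77.1, 89.9 and 105 CPM against 157, 251 and 208 CPM (-1.16 ± 0.13, adjusted p = 9.25e-10). Hemgn, a nuclear protein of blood progenitors, fell by 1.46 (adjusted p = 6.34e-04), Utp14b, a ribosome biogenesis gene that lies within the Acsl3 gene on the same strand, by 1.16 (0.00285), and Papss1, which makes the sulphate donor of the cell, by 0.81 (4.83e-04). Nfil3, a basic leucine zipper factor needed for innate lymphoid cells, fell by 1.01 (adjusted p = 0.0249) and Ermard by 1.48 (0.0467). Nfil3 lost the call without sgCont replicate 1 or 2 or sgZbtb1 replicate 1 or 3, and Ermard without any sgCont library or sgZbtb1 replicate 2 or 3.

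The increases in the libraries labelled sgZbtb1 were smaller. Tmem119, a membrane protein, was 75.4, 81.3 and 76.6 CPM in sgZbtb1 against 52.3, 38.8 and 35.8 CPM in sgCont (0.88 ± 0.19, adjusted p = 0.00111). Itga4, the integrin alpha 4 chain that binds VCAM-1 on stromal cells, was 423, 446 and 445 CPM against 344, 287 and 265 CPM (0.56 ± 0.10, adjusted p = 4.84e-05), and 506, 474 and 468 CPM in sgCbfa2t3. Ybx3, a cold shock domain protein, was 667, 655 and 665 CPM against 499, 467 and 421 CPM (0.52 ± 0.08, adjusted p = 1.05e-05). The Ybx3 peak lay 5 bases from a vM21 start site of Styk1. Prmt5, a protein arginine methyltransferase whose peak with the TGG run is 1.44 kb upstream, rose by 0.49 (adjusted p = 9.49e-04). Atp2b4, a plasma membrane calcium pump, rose by 0.64 (0.00505), Dusp6, a phosphatase of ERK with a CpG island peak, by 0.61 (0.0454), Hspa9, a mitochondrial chaperone, by 0.34 (0.00797), Zfp706, with 2 Zbtb1-alone peaks, by 0.33 (0.0444) and Ddx21, a nucleolar helicase, by 0.29 (0.0363). These last 5 genes lost the call without sgCont replicate 2 and without sgZbtb1 replicate 1, and Dusp6, Zfp706 and Ddx21 also without other libraries.

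**Figure D5:**
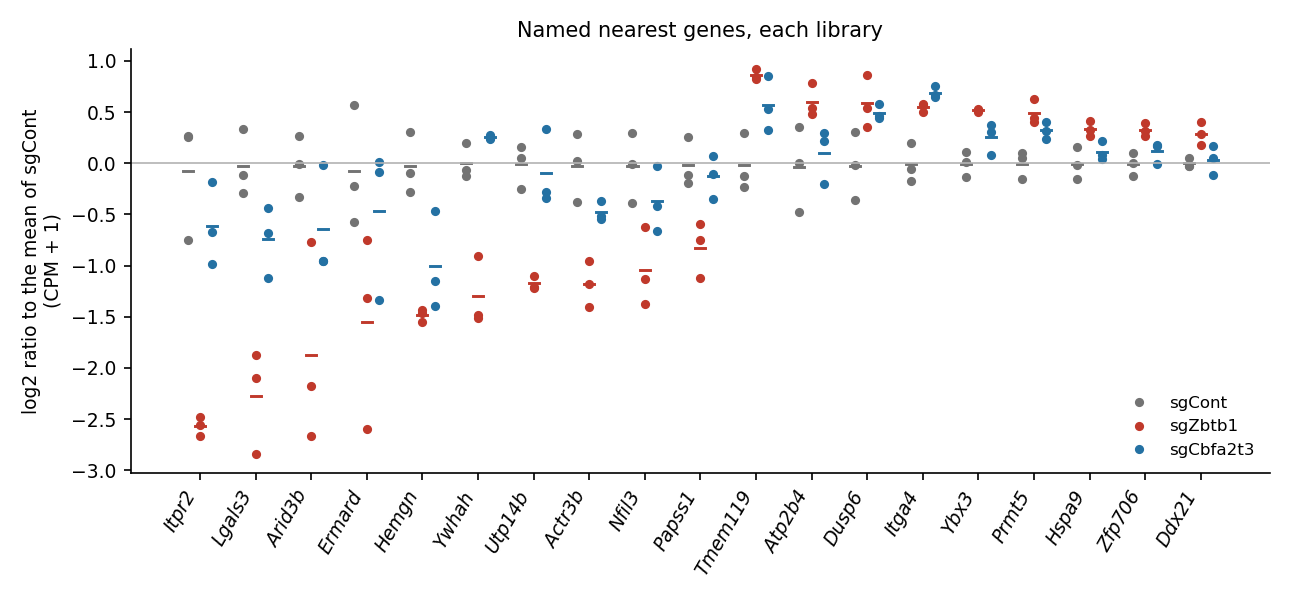
Log2 ratio of CPM + 1 to the mean of the sgCont libraries (vertical axis) for 19 nearest genes of intergenic Zbtb1-alone peaks, each point being 1 library of sgCont (grey), sgZbtb1 (red) or sgCbfa2t3 (blue) and each bar the mean of 3. The genes were chosen for having no overlap between the sgZbtb1 and sgCont libraries, 10 lower (left) and 9 higher (right), and Itpr2 has the largest difference at -2.49.

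The other 10 genes called were all lower in sgZbtb1, with log2 fold changes between -0.36 and -1.54. They were G530011O06Rik, whose libraries overlapped with sgCont, and Ptpn1, Hvcn1, Rnf130, Maml3, B4galt1, Ppfia1, Dtnbp1, Prrc2b and Nrgn. Ptpn1 and Prrc2b each also had a Zbtb1 promoter peak. Maml3, a coactivator of the Notch pathway with the TGG-run peak 76.4 kb upstream, was 83.2, 68.4 and 52.0 CPM against 85.4, 117 and 114 CPM (-0.64 ± 0.17, adjusted p = 0.0145). Of the 32 tested genes nearest to a TGGTGGTGG peak, 6 were called (18.8%, against 4.79% of all genes and 8.71% of all 333 nearest genes), namely Maml3, Rnf130, Ppfia1 and Ermard lower and Atp2b4 and Prmt5 higher, and the peaks of all but Ermard held a TGG run. Ermard and Atp2b4 lost the call when single libraries were left out, as given above. Peaks with TGTGGT were nearest to 212 tested genes, of which 21 (9.91%) were called, close to the 8.71% of all nearest genes.

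In the libraries labelled sgCbfa2t3, 2 of the 333 genes (0.601%) differed from sgCont, compared with 0.537% of all genes. For the 1 higher and the 1 lower gene the shares of all genes were 0.130% and 0.407%. Ptpn1, a protein tyrosine phosphatase, was 254, 313 and 325 CPM against 357, 393 and 444 CPM (-0.42 ± 0.10, adjusted p = 0.0277), and 213, 231 and 238 CPM in sgZbtb1. Itga4 was higher by 0.70 ± 0.10 (adjusted p = 2.32e-06). At an unadjusted limma p under 0.05 there were 48 of the 333 genes, against 1224 of all 11554 genes. With edgeR 1 higher and 1 lower were also called, against 19 and 39 of all genes. Both sgRNA conditions were set against the same 3 sgCont libraries, so their values are given side by side only. Compared directly, sgZbtb1 and sgCbfa2t3 differed in 14 of the 333 genes (4.20%, against 1.13% of all genes), 12 lower in sgZbtb1 (0.822% of all genes) and 2 higher (0.303%). The 12 were Hes1, Itpr2, Ywhah, Lgals3, Arid3b, Utp14b, B4galt1, Hvcn1, Actr3b, Papss1, Selplg and Ptpn1. The 2 higher genes were Ifitm1 (0.39 ± 0.08, adjusted p = 5.94e-04) and Cd69 (0.60 ± 0.16, adjusted p = 0.0455), a marker of lymphocyte activation, and neither was called against sgCont. Ptpn1, Maml3, Ifitm1 and Cd69 were singled out after their values were seen.

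Known regulators of lymphoid progenitors had 14 of the Zbtb1-alone peaks, and limma called none of their 14 genes in sgZbtb1 or sgCbfa2t3 against sgCont. At an unadjusted limma p under 0.05 there were 5 in sgZbtb1 (Erg, Irf8, Spi1, Stat5b and Tox) and 1 in sgCbfa2t3 (Hes1), against 2030 and 1224 of all 11554 genes. With edgeR on recovered reads, Erg, Irf8 and Tox were called in sgZbtb1, where 4.86% of all genes were called. In sgCbfa2t3 edgeR called 0 of them and 0.502% of all genes. From a list of 23 T-lineage and Notch genes, Tcf7, Gata3, Hes1 and Tox were nearest to 1 peak each, while 6 of the 17 tested genes of the list were called lower in sgZbtb1. The Tcf7 peak (chr11:52314089-52314459, score 28.4) was 31.3 kb upstream of the start site in a CpG island and 3.92 kb from the nearest Cbfa2t3 peak in the list. Cbfa2t3 signal at this position below the threshold of the list was not measured here. Tcf7, which encodes the T-cell factor TCF1, was 1.68, 0.478 and 0.491 CPM in sgZbtb1, 0.580, 5.21 and 2.35 CPM in sgCont and 0.536, 0.570 and 2.21 CPM in sgCbfa2t3. The values of 0.478, 0.491, 0.536, 0.570 and 0.580 CPM are 1 read each, below the 3 reads that could be told from 0. The fitted difference between sgZbtb1 and sgCont was not called (-0.83 ± 0.63, adjusted p = 0.537). The groups overlap only through replicate 1 of each, and the difference was -1.34 without sgCont replicate 1 (adjusted p = 0.322) and -1.11 without sgZbtb1 replicate 1 (0.477), but -0.35 without sgCont replicate 2 (0.872). Gata3 was 40.8, 43.0 and 24.1 CPM in sgZbtb1 and 38.3, 31.8 and 31.7 CPM in sgCont. Hes1, a Notch target, was listed at 0 in the 3 sgZbtb1 libraries and at 0, 0 and 1.17 CPM in sgCont. In sgCbfa2t3 it was 5.36, 7.99 and 1.66 CPM. The difference between sgZbtb1 and sgCbfa2t3 was called (limma adjusted p = 0.0312). Neither sgZbtb1 (0.825) nor sgCbfa2t3 (0.144) was called against sgCont. The Hes1 peak lay 0.218 kb from a Cbfa2t3 peak, and 3 Cbfa2t3 peaks were assigned to this gene. Tox, a nuclear factor of early T cells, was 67.0, 74.6 and 73.2 CPM in sgZbtb1 and 69.7, 121 and 119 CPM in sgCont (adjusted p = 0.0654).

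Of 38 progenitor transcription factors and Lmo2 partners, Lmo2, Spi1, Ikzf1, Erg and Foxo1 had such a peak, and 2 of the 34 tested genes of the list were called higher and 3 lower in sgZbtb1. The list holds Zbtb1 itself, which is 1 of the 2 called higher. Spi1, which encodes PU.1 and has its peak 8.99 kb upstream with a score of 67.4, was 141, 150 and 137 CPM in sgZbtb1 against 103, 111 and 133 CPM in sgCont, without overlap and without a call (0.31 ± 0.14, adjusted p = 0.219). Ikzf1, whose peak lies 20 bases from a Cbfa2t3 peak, was 409, 447 and 359 CPM against 375, 419 and 442 CPM. Erg was 46.9, 22 and 21.1 CPM against 18.0, 9.84 and 16.4 CPM (0.92 ± 0.31, adjusted p = 0.0703). Among 16 cytokine receptor and signalling genes, of which 2 were called lower in sgZbtb1, Il7r, Stat5b and Socs1 had a peak, each with 2 or 3 Runx matches. Il7r, the receptor through which IL-7 sustains these cells, has its peak 45.1 kb upstream and 102 kb from any Cbfa2t3 peak, and was 158, 167 and 143 CPM in sgZbtb1 and 175, 155 and 154 CPM in sgCont (-0.05 ± 0.11). Trp53inp1 was the only one of 14 survival and p53 genes with a peak (2 called higher and 1 lower in sgZbtb1). Among 14 B-lineage genes only Irf8 had one (2 of 9 tested called lower, 1 of them Ebf1). Irf8 was 137, 164 and 158 CPM against 111, 120 and 116 CPM (0.40 ± 0.13, adjusted p = 0.0585). None of the 8 myeloid genes had one, and 0 of their 4 tested genes were called. In sgCbfa2t3, 2 T-lineage and 1 cytokine gene were called lower. The 1 gene called higher among the progenitor factors was Cbfa2t3 itself, the target of the sgRNAs. None of these genes is nearest to a Zbtb1-alone intergenic peak.

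None of the genes nearest to 3 or more Zbtb1-alone peaks was among those called. BC107364, Cpn2, Hfe2, Ptgs1, Tagap and Vegfa were each nearest to 3 peaks, and Gm2002 to the 4 on scaffolds. BC107364 and Cpn2 had no read in any library, Hfe2 was not matched to the table, and Ptgs1 (2.23, 6.69 and 4.42 CPM in sgZbtb1) and Tagap (0, 3.35 and 1.47 CPM) were low. Vegfa, a growth factor of blood vessels, was 83.8, 96.6 and 75.1 CPM in sgZbtb1 and 93.5, 85.7 and 71.0 CPM in sgCont (0.03 ± 0.15).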

How the data were processed

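Per the labels and the study's methods, the authors mapped ChIP-seq reads to mm10 with Bowtie 1.1.1, called peaks with HOMER against input, kept those reproducible over 2 replicates with a score of at least 15, and deposited 1 annotated list per factor. The score and the fraction of reads near the peak centre were computed by the authors with HOMER and deposited in the same lists, with 1-based positions. For QuantSeq, the authors trimmed with fastp, mapped with STAR and deposited values called TPM, which are CPM, not divided by gene length. Whole reads were recovered from 99.9% of the values within a tolerance of 5%. A row naming no gene was dropped.

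Members were found by coordinates and annotation. Motifs were searched on both strands in the central 200 bp of the 371 bp peaks (GRCm38), with Wilson and Newcombe 95% intervals. For 11554 genes whose mean over 15 libraries exceeded 1 CPM, limma 3.58.1 (R 4.3.3, trended variance) was applied to log2(CPM + 1), with every library in the fit, two-sided, with Benjamini-Hochberg adjustment over all genes and a call at 0.05. Fold changes on this scale understate changes of low genes. edgeR 4.0.16 with TMM on recovered reads called 561 genes in sgZbtb1 and 58 in sgCbfa2t3, compared with 554 and 62 by limma. Genes named were up to 10 per direction with the largest change among those called, with a mean above 10 CPM in a group and no overlap between libraries. The motif search, the overlap of peaks and the fits across genes were tested on simulated data. The members, lists and motifs were chosen with earlier results of these data known.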

Additional observations from a re-analysis of the deposited data

How the results depend on the processing

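The number of peaks was 250 at scores of at least 30, and between 490 and 919 under the other choices tried. The share with TGTGGT was 54.7% in 100 bp windows and 67.1% away from vM21 genes and start sites, and the difference from shared peaks was -1.37 points in 100 bp windows. The share with TGGTGGT was 14.4% in 100 bp windows, and 3.95% in flanks at 1 kb. The share with TGGTGGTGG was 11.0% at scores of at least 30 and 2.58% without TGG runs, where the difference from shared peaks was 1.05 points. The settings without TGG runs and away from vM21 genes were chosen after seeing the data. Of the genes called in sgZbtb1, 9 were higher, and this became 5 with all genes above 0, 15 with the 6 libraries alone, 14 with edgeR, 0 at the thresholds of the methods (unadjusted p, 2-fold change, mean above 10), 5 for peaks with scores of at least 30, and 4 to 10 when 1 library was left out. The 20 lower became 11 at those thresholds, 10 at scores of at least 30, and 13 to 19 when 1 library was left out. In sgCbfa2t3, the 1 higher became 0 at those thresholds, at scores of at least 30 and within 100 kb, and 1 to 2 when 1 library was left out. The 1 lower became 0 with all genes above 0 or scores of at least 30, 4 at those thresholds, and 0 to 2 when 1 library was left out. The cause was not tested. Over all 11554 genes, the fit of the 6 libraries alone called 290 higher and 400 lower in sgZbtb1. In the main fit these counts were 214 and 340, and with edgeR 256 and 305. For the other settings of this paragraph no counts over all genes are given. Their counts therefore do not show whether the nearest genes or all genes moved. Of 190 values of named genes under an alternative, 160 kept direction and call and 30 lost the call, in 7 genes (Ermard, Nfil3, Atp2b4, Dusp6, Hspa9, Zfp706 and Ddx21), and none changed sign. At these depths, values under 3 reads could not be told from 0.

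The labels do not say that a replicate number marks a shared batch, and same-numbered libraries had correlations of 0.0346, 0.0401 and 0.0381 (sgCont and sgZbtb1) and 0.0388, -0.00707 and 0.0172 (sgCont and sgCbfa2t3), so the numbers were not treated as pairs. As a hint from the data, 3 of 3 sgZbtb1 and 2 of 3 sgCbfa2t3 libraries were closest to the sgCont library of their number. With the replicate block, the nearest genes called were 15 higher and 28 lower in sgZbtb1 and 1 higher and 4 lower in sgCbfa2t3. Over all genes the block gave 284 higher and 425 lower in sgZbtb1, and 27 higher and 66 lower in sgCbfa2t3.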
